A study of Homo sapiens with 4 samples.

Results

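The transcription factors that give a B cell its identity were followed on 4 Affymetrix expression arrays of lymphoma cells with and without resistance to rituximab, a therapeutic antibody against the B-cell surface protein CD20. The 10 genes were PAX5, EBF1, ZNF521, IKZF1, SPI1, SPIB, POU2F2, POU2AF1, BACH2 and IRF8. They were read by 32 probe sets, out of 54613 on the array and 41091 that name a single gene. PAX5 was chosen by its lower signal in Raji/R and ZNF521 by its lower signal in both resistant lines, so the ratios of these 2 genes of resistant over parental signal are a description with no test. The other 8 genes are partners of these factors and other regulators of B cells, and all probe sets of all 10 genes are reported.

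The Jeko-1 line was derived from mantle cell lymphoma and the Raji line from Burkitt lymphoma, both tumours of B cells. The labels describe the parental Jeko-1 and Raji cells as not treated with rituximab, and Jeko-1/R and Raji/R as rituximab-resistant lines derived from them and treated with the antibody, so resistance and treatment cannot be told apart. Each of the 4 cultures was measured on 1 array, so no group had a replicate, and this number of arrays limits the precision. The dose and length of rituximab exposure, and whether a resistant line is 1 clone, are not given in the sources used here.

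PAX5 and EBF1 act together with the E proteins to commit a lymphoid progenitor to the B lineage, switching on the B-cell receptor genes, and PAX5 also keeps genes of other lineages silent. ZNF521 is a zinc finger protein of immature blood cells that binds EBF1, limits its activity and recruits the NuRD repressor complex. The other factors refine the program: Ikaros (IKZF1), the ETS factors PU.1 (SPI1) and SPIB, OCT2 (POU2F2) with its coactivator OBF1 (POU2AF1), the repressor BACH2, which holds back plasma-cell differentiation, and IRF8.

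Promoter sequences are shown for PAX5, EBF1 and BACH2, which stood lower in Raji/R than in Raji, and for SPIB, which with BACH2 differed most between the lines. Each is the 250 bases before a start site in the RefSeq promoter table (GRCh38.p14), written 5′ to 3′ on the strand of the gene. The EBF1 window lies inside the span of the gene, before an internal start site, while the other windows shown adjoin the end of their gene. Capitals mark matches, on either strand, to 6 short motifs of the factors themselves: CCCNNGGG (EBF1), ATGCAAAT (the octamer bound by OCT2), GGAA (the core bound by ETS factors), GGAANNGAA (the composite bound by an ETS factor with an IRF), TGAGTCA (the core of BACH2 sites, shared with AP-1) and TGGGAA (Ikaros). Matches may overlap, since GGAA lies inside the composite and inside the Ikaros core. The windows lie at chr9:37034269-37034518 on the minus strand (PAX5), chr5:159097957-159098206 on the minus strand (EBF1), chr6:90296844-90297093 on the minus strand (BACH2) and chr19:50418688-50418937 on the plus strand (SPIB).
PAX5: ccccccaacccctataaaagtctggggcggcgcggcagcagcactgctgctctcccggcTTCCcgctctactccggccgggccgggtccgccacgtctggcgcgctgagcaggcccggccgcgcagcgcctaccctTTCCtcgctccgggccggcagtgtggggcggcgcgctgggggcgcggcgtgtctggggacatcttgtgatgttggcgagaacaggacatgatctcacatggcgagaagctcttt
EBF1: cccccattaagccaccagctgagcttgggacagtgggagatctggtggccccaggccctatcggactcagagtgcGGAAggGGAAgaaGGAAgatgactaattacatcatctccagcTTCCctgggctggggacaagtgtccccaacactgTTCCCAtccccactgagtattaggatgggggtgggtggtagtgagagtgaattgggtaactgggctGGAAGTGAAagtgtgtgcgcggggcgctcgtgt
BACH2: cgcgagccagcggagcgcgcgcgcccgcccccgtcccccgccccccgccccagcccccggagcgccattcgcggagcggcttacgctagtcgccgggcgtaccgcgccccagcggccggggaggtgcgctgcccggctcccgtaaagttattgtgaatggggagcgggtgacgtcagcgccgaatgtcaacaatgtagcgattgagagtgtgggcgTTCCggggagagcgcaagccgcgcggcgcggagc
SPIB: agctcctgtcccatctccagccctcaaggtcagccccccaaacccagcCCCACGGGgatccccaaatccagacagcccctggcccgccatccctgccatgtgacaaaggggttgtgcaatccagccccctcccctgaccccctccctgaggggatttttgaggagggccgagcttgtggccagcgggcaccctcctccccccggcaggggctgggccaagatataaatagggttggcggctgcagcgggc

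The EBF1 window held 6 ETS cores, 1 of them within an ETS-IRF composite that began 33 bases before the start, and 1 Ikaros core at 99 bases. The PAX5 window held 2 ETS cores and the BACH2 window 1. The SPIB window held no ETS core and 1 EBF1 motif, 202 bases before the start. Among all 35116 windows of this length, 92.7% held an ETS core, 20.8% an Ikaros core, 17.1% an EBF1 motif, 6.58% a composite, 4.20% a BACH2 core and 1.63% an octamer. The BACH2 and PAX5 windows were rich in G and C (73.6% and 69.6%) and in CpG dinucleotides (40 and 27), against medians of 58% and 11 over all windows. The EBF1 window had 57.2% and 6 CpG, and the SPIB window 66.4% and 7 CpG. A match describes the letters in the window and does not show that a factor binds there.

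PAX5 is the factor without which a B cell loses its commitment, and it spans chr9:36833269-37034268. Its probe set 221969_at gave a signal (the summary that the MAS5 software makes of the probes in a set) of 8394 on the Jeko-1 array, 8458 on Jeko-1/R, 13252 on Raji and 5628 on Raji/R. The Jeko-1 pair was level and lay between both Raji arrays, of which the resistant one was the lowest of the 4. The log2 ratio of resistant over parental signal was 0.01 for Jeko-1/R and -1.24 for Raji/R, a 2.35-fold lower signal. The other PAX5 probe set, 206802_at, had 58.9, 8.13, 24.4 and 7.59 on the arrays in that order. These 4 values lie below a signal of 77.5, the pooled median of all values, which served as a floor under which values have no order, so the lower PAX5 signal in Raji/R rests on 1 probe set. The cells were measured in bulk, so fewer cells with a transcript and less transcript per cell cannot be told apart.

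EBF1, the factor that opens B-cell genes to PAX5, lies at chr5:158695920-159099916 and was read by 4 probe sets. Its brightest, 227646_at, gave 6622 on the Jeko-1 array, 7075 on Jeko-1/R, 3851 on Raji and 3132 on Raji/R. Probe set 229487_at gave 1908, 2168, 1368 and 944 on the same arrays, and 232204_at gave 1824, 1916, 1293 and 916. The 3 probe sets kept 1 order of arrays, highest in Jeko-1/R and lowest in Raji/R. Their log2 ratios were 0.10, 0.18 and 0.07 in Jeko-1/R and -0.30, -0.54 and -0.50 in Raji/R, so none reached 2-fold. The fourth probe set, 233261_at, had 244 and 352 in the Jeko-1 pair, a log2 ratio of 0.53, and 33.1 and 24.0 in the Raji pair, below the floor. Over the probe sets above the floor, the mean log2 ratio of EBF1 was 0.22 ± 0.21 (SD over 4 probe sets) for Jeko-1/R and -0.44 ± 0.13 (SD over 3 probe sets) for Raji/R. Probe sets of 1 gene share an array and are not replicates of a condition.

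ZNF521, the inhibitor of EBF1, lies at chr18:25061924-25352166 and was dim on all arrays. Probe set 226677_at gave 171 on the Jeko-1 array, 78.9 on Jeko-1/R, 416 on Raji and 170 on Raji/R. The parental line was the higher in both pairs, and Jeko-1/R stood just above the floor of 77.5. The log2 ratios were -1.12 and -1.29, or 2.17-fold and 2.45-fold lower. Probe set 226676_at gave 87.2, 90.0, 355 and 204, with log2 ratios of 0.05 for Jeko-1/R and -0.80 for Raji/R. Thus both probe sets were lower in Raji/R, while in Jeko-1/R they differed, and there both stood near the floor. The size depends on the treatment of dim values: the ratio of 226677_at in Jeko-1/R was -0.93 after quantile normalization and -0.72 with a pseudocount of 64, both short of 2-fold, and its ratio in Raji/R was -0.18 with a floor at the 75th percentile.

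**Figure D1:**
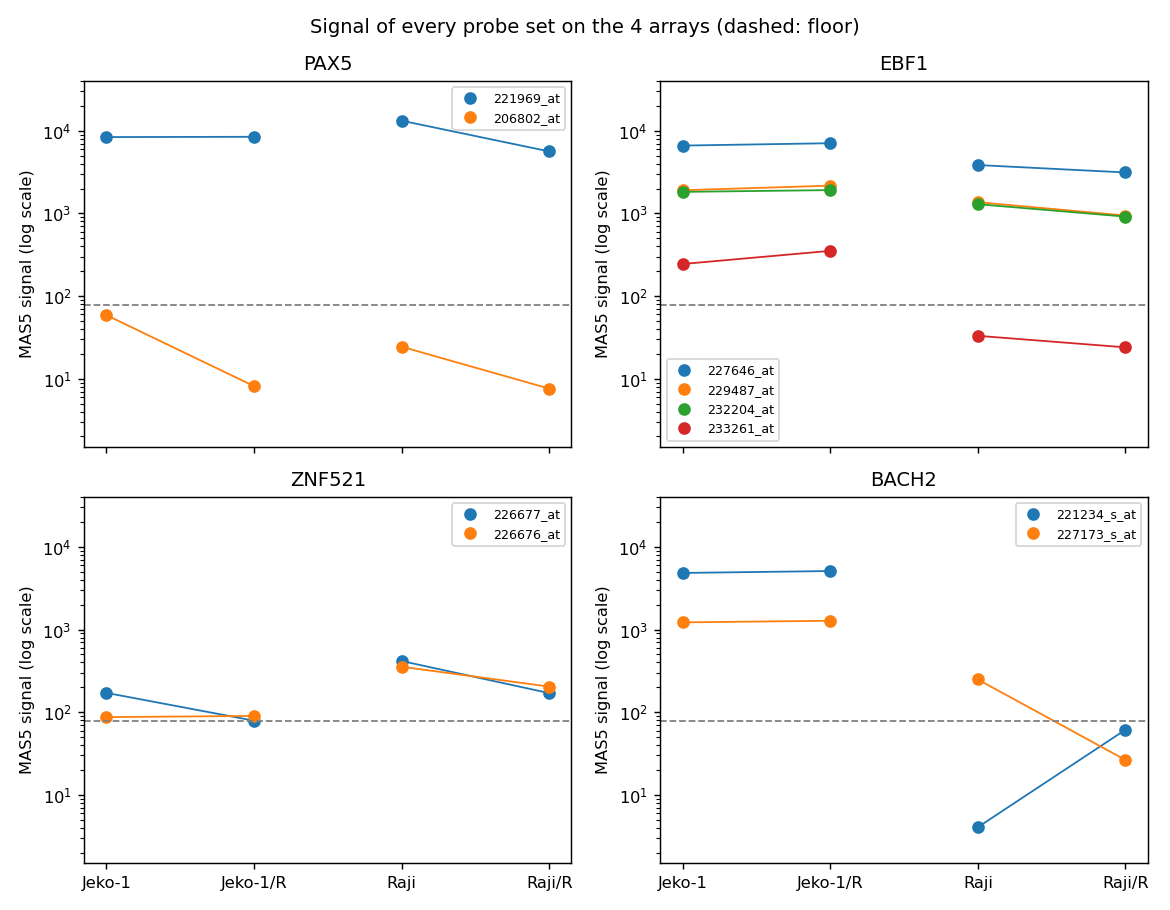
Signal of every probe set of PAX5, EBF1, ZNF521 and BACH2 on the 4 arrays (x axis), on a log scale (y axis); points are single arrays, lines join a parental line to its resistant line, and the dashed line is the floor of 77.5, under which values have no order. PAX5 goes from 13252 to 5628 in the Raji pair and is level in the Jeko-1 pair, and both BACH2 probe sets are higher on the Jeko-1 arrays than on the Raji arrays.

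BACH2 lies at chr6:89926528-90296843, and its protein represses the gene of the plasma-cell regulator BLIMP-1. Probe set 227173_s_at gave 1221 on the Jeko-1 array, 1277 on Jeko-1/R, 249 on Raji and 26.4 on Raji/R. The signal in Raji/R was below the floor, so it was at least 3.21-fold lower than in Raji, while the Jeko-1 pair differed by a log2 ratio of 0.06. Probe set 221234_s_at gave 4838 and 5101 in the Jeko-1 pair (a log2 ratio of 0.08) and 4.06 and 61.3 in the Raji pair. Both Raji values lie below the floor and carry no direction, so the lower BACH2 signal in Raji/R also rests on 1 probe set.

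IKZF1, which encodes the zinc finger factor Ikaros and lies at chr7:50303455-50405101, had 9 probe sets. The brightest, 227346_at, gave 5673 on the Jeko-1 array, 6367 on Jeko-1/R, 6498 on Raji and 4978 on Raji/R, with log2 ratios of 0.17 and -0.38. Probe set 205039_s_at gave 2586, 2999.9, 2900.1 and 2747, and 227344_at gave 1197, 1590.2, 1285 and 1088. In each of these 3 probe sets Jeko-1/R was above Jeko-1 and Raji/R below Raji, as for EBF1, with log2 ratios between -0.38 and 0.41. Probe set 205038_at gave 588, 513, 861 and 719 and was lower in both resistant lines (-0.20 and -0.26). Probe set 1565817_at gave 262, 305, 447 and 557 and was higher in both (0.22 and 0.32). Probe set 220704_at had 234 and 305 in the Jeko-1 pair (0.38) and 62.3 and 31.9, below the floor, in the Raji pair. Of the 3 dimmest, 1565818_s_at had 37.0, 101, 86.9 and 58.3, a bound of 1.30-fold higher for Jeko-1/R, and for Raji/R a bound of 1.12-fold lower. The second, 216901_s_at, had 14.4, 9.11, 11.1 and 79.7, and the third, 1565816_at, was below the floor on all 4 arrays (3.19, 5.02, 6.45 and 17.0). None of the 9 reached 2-fold in either line. The mean log2 ratio was 0.22 ± 0.21 for Jeko-1/R and -0.11 ± 0.23 for Raji/R (SD over 7 probe sets each).

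The ETS factors differed in presence. SPI1 (chr11:47354860-47378547), which encodes PU.1, was below the floor on every array, with 51.9, 18.8, 24.0 and 53.1, and has no ratio here. SPIB (chr19:50418938-50431314), its relative in B cells, gave 955 on the Jeko-1 array, 1184 on Jeko-1/R, 3393 on Raji and 3533 on Raji/R with probe set 205861_at. Its other probe set, 232739_at, gave 259.8, 346, 3693 and 2292. On both probe sets the Raji arrays stood above the Jeko-1 arrays. The log2 ratios within a line were 0.31 and 0.41 in Jeko-1/R, and 0.06 and -0.69 in Raji/R, where the probe sets disagreed in direction.

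OCT2 and OBF1 bind octamer elements of immunoglobulin promoters together. POU2F2 (chr19:42086110-42197936), the gene of OCT2, had 7 probe sets, all at or above the floor on every array. The brightest over the 4 arrays was 227749_at, with 1285 on the Jeko-1 array, 1299.6 on Jeko-1/R, 1179.6 on Raji and 1268 on Raji/R, a difference of 0.02 and 0.10 on the log2 scale. Probe sets 242866_x_at (1092, 985, 1083 and 958), 229750_at (806, 732, 1027 and 993) and 228343_at (345, 300.03, 403 and 376) were lower in both resistant lines, by log2 ratios between -0.20 and -0.05. Probe set 235661_at gave 1615, 1563, 836 and 649.7, with ratios of -0.05 and -0.36. Probe set 211771_s_at gave 193, 239.9, 269 and 232, with ratios of 0.31 and -0.21. The dimmest, 211660_at, gave 141, 128, 154 and 317 and was 2.06-fold higher in Raji/R, while the other 6 probe sets had ratios between -0.36 and 0.10 there. The mean log2 ratio over the 7 was -0.05 ± 0.18 for Jeko-1/R and 0.03 ± 0.47 for Raji/R.

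POU2AF1 (chr11:111352255-111379275), the gene of OBF1, gave 18953, 17596, 38653 and 48532 with probe set 205267_at, a log2 ratio of -0.11 for Jeko-1/R and 0.33 for Raji/R. Its second probe set, 1569675_at, had 83.7 and 80.2 in the Jeko-1 pair and 50.6 and 67.6, below the floor, in the Raji pair. IRF8 (chr16:85899162-85922609), an interferon regulatory factor that works with PU.1 and SPIB in B cells, had 1 probe set, with 6703, 6957, 8021 and 8617. Its log2 ratios of 0.05 and 0.10 were small in both lines.

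Counted over all 10 genes, 29 of the 32 probe sets reached the floor on at least 1 array and 3 did not. In the Jeko-1 pair 28 could be measured, of which 1 (ZNF521) was lower by 2-fold or more in the resistant line and 0 were higher. Among all 22317 probe sets measured there, 0.551% were at least 2-fold lower and 0.435% higher. In the Raji pair 25 could be measured, of which 3 were at least 2-fold lower in Raji/R (PAX5, ZNF521 and BACH2) and 1 was higher (POU2F2). The shares among all 26874 probe sets were 2.94% lower and 7.43% higher. PAX5 and ZNF521 were picked on these ratios, so nothing is read from the counts.

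Without the picked PAX5 and ZNF521, the median log2 ratio of the measured probe sets was 0.08 in Jeko-1/R, with 17 of 25 above 0, against 0.003 for all probe sets. In Raji/R it was -0.17, with 15 of 22 below 0, against 0.09 for all, with 11557 of 26874 below 0. The value for all probe sets in Raji/R depended on brightness. It was 0.18 at a mean log2 signal of 6.28 to 6.75 and 0.37 from 6.75 to 7.92. For brighter probe sets it was 0.01 (7.92 to 9.90) and -0.03 (9.90 to 16.84). The ratios of the 8 genes were not set against probe sets of like brightness. Of the 21 probe sets of these 8 genes measured in both lines, 10 were higher in Jeko-1/R and lower in Raji/R, 2 were the reverse, 5 were lower in both and 4 higher in both. The 10 include 3 of EBF1, and 227346_at, 205039_s_at, 227344_at and 1565818_s_at of IKZF1. Most of the 10 thus come from these 2 genes, and probe sets of 1 gene share their target. Over all 19522 probe sets measured in both lines the 4 patterns took 24.3%, 26.3%, 23.9% and 25.5% in that order, and the difference of the members from these shares was not tested. As a measure of spread, log2 ratios varied between probe sets of 1 gene with an SD of 0.25 over 5310 genes in Jeko-1/R and 0.49 over 4949 genes for Raji/R. The ratio of PAX5 was picked for its size and is not set against this spread.

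The Raji/R array differed from the others as a whole, and these values stand beside every Raji ratio. Its median log2 signal over all probe sets was 6.59, against 6.11, 6.12 and 6.18 on the others, a shift of 0.41 from Raji. On it 55.6% of probe sets reached the floor, against 48.0% to 48.3%. Its part in the ratios was not tested, but they were recomputed under other scalings. The PAX5 log2 ratio in Raji/R was -1.05 after quantile normalization, -1.65 after median centring and -1.25 after a lowess adjustment. All ratios of EBF1, ZNF521 and PAX5 in Raji/R kept their sign under these 3 scalings. With median centring, which lowers every Raji/R value by the shift, 23 of 24 member probe sets (PAX5 and ZNF521 included) were below 0. The median log2 ratio of all probe sets was itself -0.28 under this scaling. The probe sets of SPIB (205861_at), POU2F2 (227749_at), POU2AF1 (205267_at), IRF8 and IKZF1 (1565817_at) turned from above to below 0. POU2F2 229750_at turned from below to above 0 after quantile normalization and lowess. In Jeko-1/R, PAX5 turned to just below 0 with median centring, and POU2F2 227749_at reached 0 or below with quantile normalization and lowess. Over all probe sets the higher made up 71.7% of the 2-fold calls in Raji/R as deposited, 50.2% after quantile normalization, 30.5% after lowess and 22.6% after median centring.

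**Figure D2:**
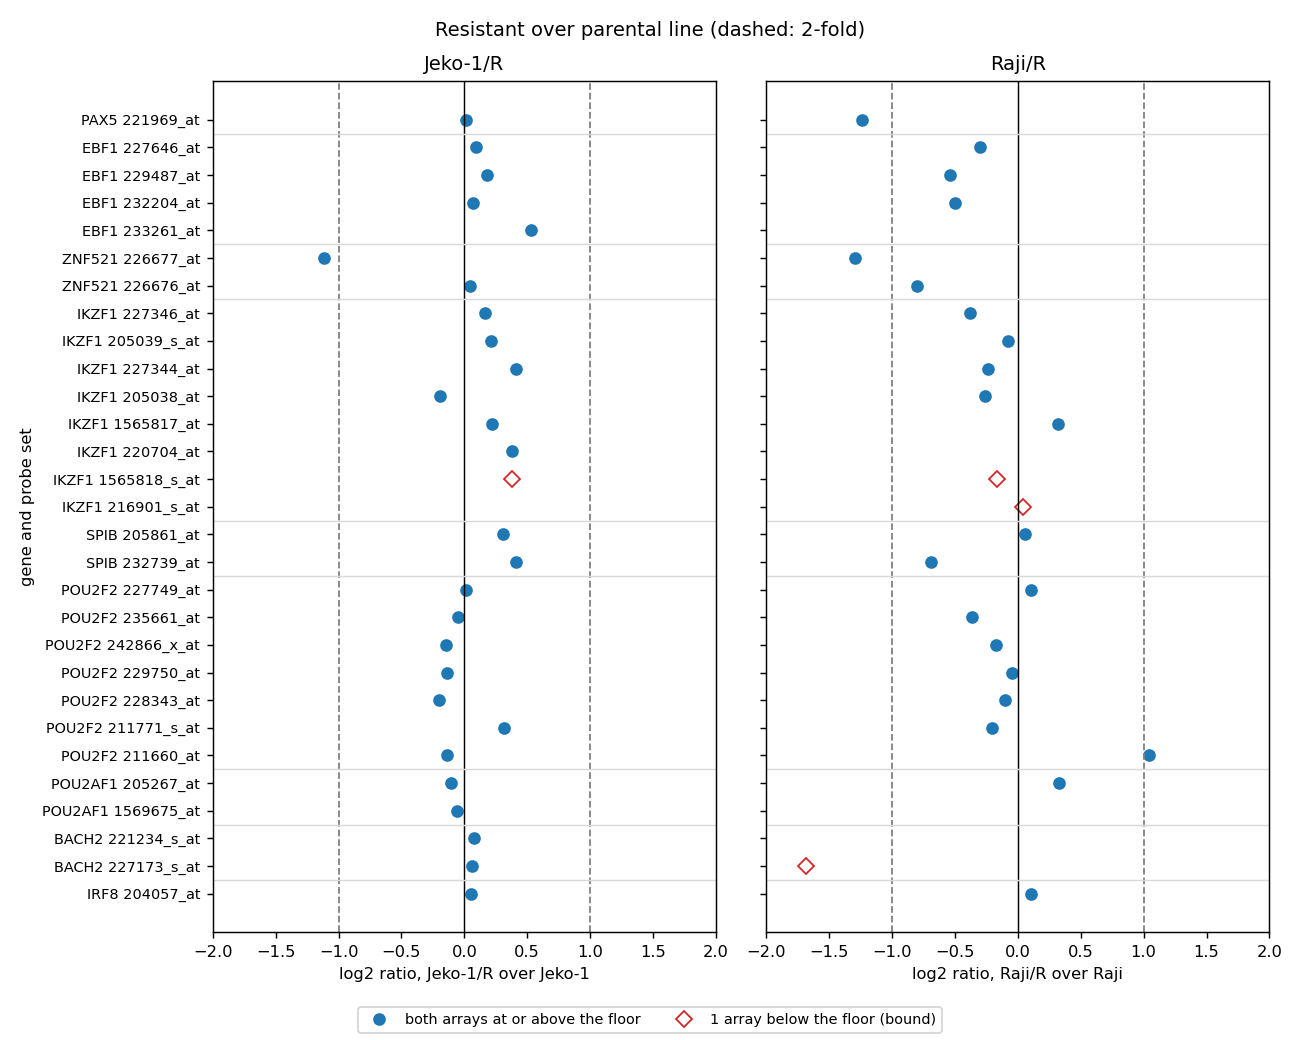
Log2 ratio of resistant over parental signal (x axis) for each member probe set (rows) measured in Jeko-1/R (left) and Raji/R (right); filled circles have both arrays at or above the floor, open diamonds are bounds with 1 array below it, and dashed lines mark 2-fold. In Jeko-1/R 1 ZNF521 probe set lies past 2-fold, at -1.12, while in Raji/R PAX5 at -1.24, ZNF521 at -1.29 and BACH2 lie past it on the lower side.

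**Figure D3:**
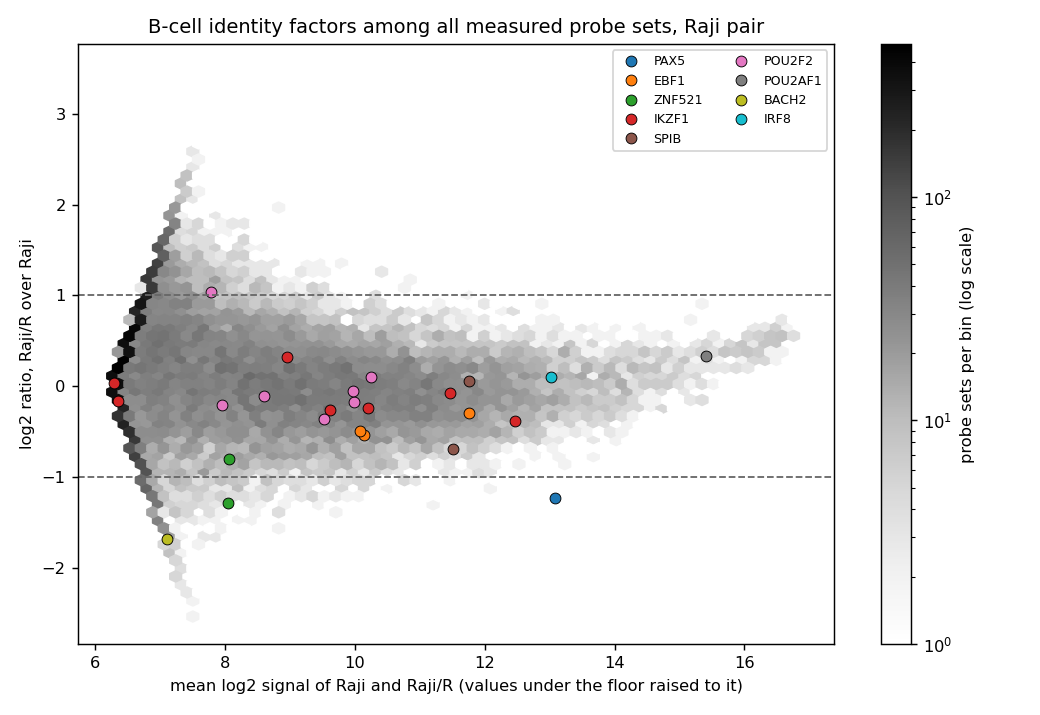
Log2 ratio of Raji/R over Raji (y axis) against the mean log2 signal of both arrays (x axis) for all 26874 measured probe sets (grey hexagons, darker where more lie, on a log scale) and for the 25 member probe sets (coloured by gene). PAX5, picked for this ratio, lies at -1.24, and the EBF1, IKZF1 and SPIB points lie between the 2-fold lines.

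Levels between the lines were not used to pick the genes, and they were tested. The error of the test comes in part from the difference between the 2 within-line ratios, and PAX5 and ZNF521 were picked on these ratios. For these 2 genes the differences between lines are therefore a description, and their p-values are not given. The Jeko-1 lines carried more EBF1 and BACH2, and the Raji lines more SPIB and POU2AF1, while IRF8 did not pass the test. ZNF521 signals were higher on average in the Raji lines. The test was limma over all 29669 probe sets above the floor on at least 1 array, with resistance as a term, and adjusted p under 0.05 counted as a call. It called 14 of the 29 member probe sets, but 3 of these were below the floor on both Raji arrays and entered the fit through the Jeko-1 arrays alone, so their p-values are not given. Of the 24 that reached the floor in both lines it called 11, from 7 genes, with 5 higher in the Jeko-1 lines and 6 lower. Among all 19522 such probe sets, 29.6% were called higher in the Jeko-1 lines and 30.2% lower (25.2% and 24.5% of the 29669), so calls among the members were no more frequent than on the array as a whole. The counts of calls include both ZNF521 probe sets, among the 6 lower, and for this gene a call is no test. The 2 arrays of a line are not separate cultures of 1 state. The p-values set a difference against how far the 2 within-line ratios differed, moderated over all probe sets, and measure no spread between cultures.

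BACH2 probe set 221234_s_at was at least 64.1-fold higher in the Jeko-1 lines, a bound with no test. Probe set 227173_s_at was higher by at least 3.17 on the log2 scale (limma, adjusted p = 0.000793), with Raji/R below the floor. SPIB lay the other way, 9.70-fold lower with 232739_at (limma, adjusted p = 0.000257) and 3.26-fold lower with 205861_at (adjusted p = 0.00138). For both genes the arrays of 1 line lay wholly above those of the other.

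EBF1 was higher in the Jeko-1 lines on the 3 probe sets that reached the floor in both lines, by 0.98 ± 0.26 (SE) on the log2 scale for 227646_at (limma, adjusted p = 0.0173). The differences were 0.84 for 229487_at and 0.78 for 232204_at (limma, adjusted p = 0.0434 and 0.0477). The fourth, 233261_at, was at least 3.79-fold higher, again a bound with no test. ZNF521, the inhibitor of EBF1, had lower signals in the Jeko-1 lines, by log2 differences of -1.60 for 226676_at and -1.19 for 226677_at, a description with no p-value. On 226677_at the lines overlapped, since Raji/R at 170 lay just under Jeko-1 at 171.

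POU2AF1 was lower in the Jeko-1 lines by a log2 difference of -1.25 (205267_at; limma, adjusted p = 0.00644). POU2F2, which encodes the partner of OBF1, gave 1 call in 7, with 235661_at higher in the Jeko-1 lines by 1.11 (limma, adjusted p = 0.00966). Of the IKZF1 probe sets, 1565817_at was lower in the Jeko-1 lines by -0.82 (limma, adjusted p = 0.0297), while 220704_at was at least 3.45-fold higher, a bound with no test. IRF8 differed by -0.28 ± 0.25 (SE; limma, adjusted p = 0.384). PAX5 differed by -0.04 ± 0.34 (SE). The large PAX5 difference within the Raji pair, on which the gene was picked, enters this estimate and its error.

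**Figure D4:**
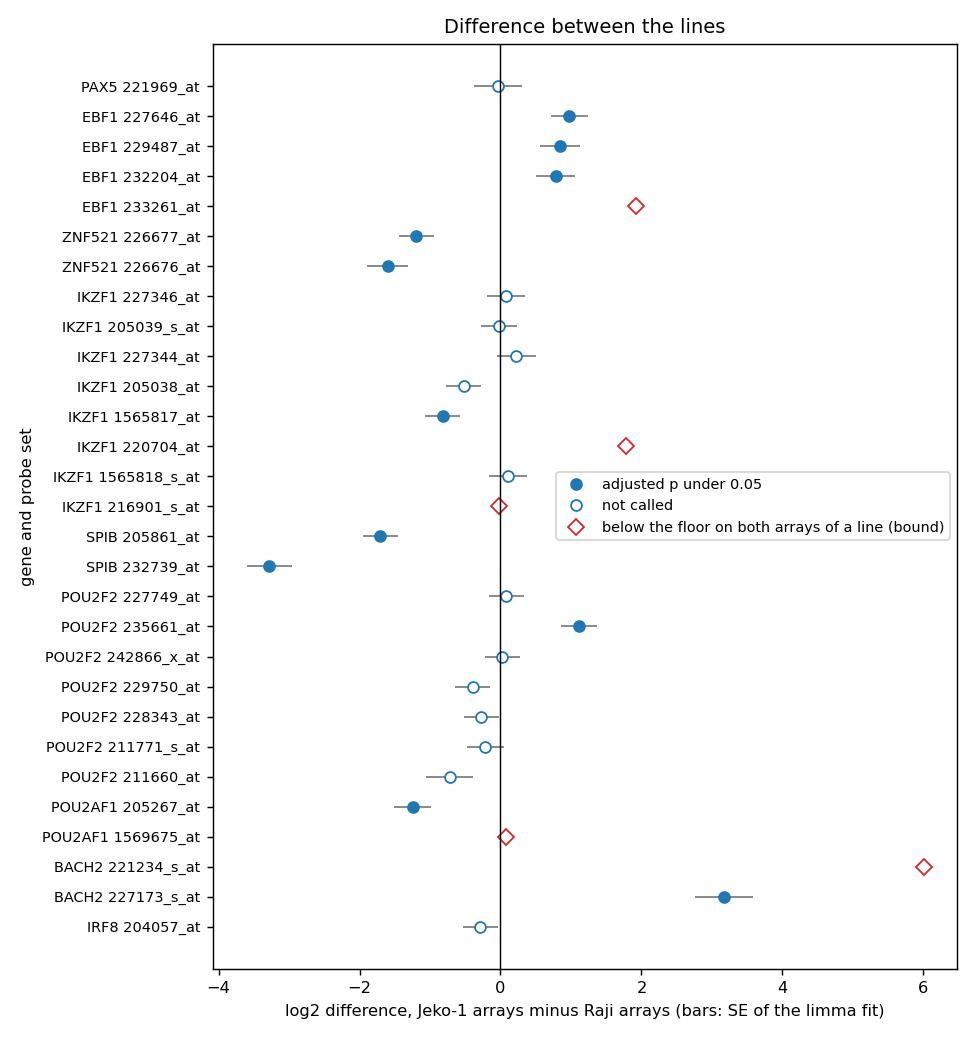
Log2 difference between the 2 Jeko-1 arrays and the 2 Raji arrays (x axis) for each of the 29 member probe sets at or above the floor on at least 1 array (rows); bars are the standard error of the limma fit, filled points have an adjusted p under 0.05, and open diamonds are bounds for probe sets below the floor on both arrays of a line. BACH2 lies farthest to the Jeko-1 side and SPIB farthest to the Raji side, and PAX5 lies at -0.04. The marks of PAX5 and ZNF521 are a description, since the ratios they were picked on enter the error of the fit.

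These calls depend on how dim values are treated. With no filter and no floor, limma called 0 of 41091 probe sets (smallest adjusted p = 0.0986, with 14287 at an unadjusted p under 0.05), and 7 of the 14 member calls then had an unadjusted p under 0.05. On probe sets above the floor on all 4 arrays, a setting chosen after seeing the data, 10 of the 14 could be fitted and these 10 were called again. The POU2AF1 difference went to -0.07 after quantile normalization (limma, adjusted p = 0.82, in a range of 0.000932 to 0.82 over its alternatives). The difference of ZNF521 226677_at went to -0.09 with a floor at the 75th percentile. Calls of this probe set under the settings are not read, since ZNF521 was picked on ratios that enter the error of the fit. The EBF1 probe sets 229487_at and 232204_at were each called in 4 of 9 alternatives, 227646_at in 9 of 10, and IKZF1 1565817_at in 5 of 9 (limma, adjusted p from 0.011 to 0.228).

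The resistance term of the same fit asks whether both resistant lines moved together. For the 8 genes not picked on this contrast, limma called 0 of 26 probe sets (smallest adjusted p = 0.982), and 0 had an unadjusted p under 0.05. Among all 29669 probe sets it called 0 (0%), with 674 at an unadjusted p under 0.05 (2.27%). The EBF1 probe set 227646_at differed by -0.10 ± 0.26 (SE), and BACH2 227173_s_at, the largest of these genes, by -0.81 ± 0.41 (limma, adjusted p = 0.985 and 0.982). With 1 residual degree of freedom, this does not show that the levels were alike.

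Profiles like those of PAX5, EBF1 and ZNF521 were sought among 9218 genes above the floor on all 4 arrays, by the Euclidean distance between log2 profiles centred on their own means. Nearest to PAX5 were NABP1 (distance 0.12), CNNM2 (0.13) and CEBPZOS (0.16). NABP1, which encodes a single-stranded DNA binding protein, had 1149, 1210.2, 2019.7 and 843. Nearest to EBF1 were EEF1AKMT2 (0.04), ASH2L (0.05) and HNRNPH1 (0.05), of which ASH2L, a subunit of histone H3 lysine methyltransferase complexes, had 1299.7, 1399, 735 and 598. Nearest to ZNF521 were FAM120C (0.33), DACT3 (0.39) and PLSCR1 (0.39). PLSCR1, a phospholipid scramblase gene, had 543, 193, 1186 and 598. With 4 arrays, many of 9218 genes will lie near any profile.

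The genes that these factors are known to control were read next, each by its brightest probe set and without the 10 factors. Among all genes, 0.595% of 11588 were at least 2-fold lower and 0.38% higher in Jeko-1/R, and 2.64% of 14642 lower and 7.01% higher in Raji/R. The median log2 ratio of all genes was 0.001 for Jeko-1/R and 0.08 for Raji/R. Of genes activated by PAX5, 0 of 16 passed 2-fold in Jeko-1/R (median 0.14). In Raji/R, where PAX5 itself was lower, 0 of 20 were lower and 1 was higher (median 0.22). The higher gene was FCER2, which encodes the low-affinity IgE receptor CD23, with 158 in Raji and 423 in Raji/R (a log2 ratio of 1.42, and 0.70 from its other probe set). CD79A, a signalling chain of the B-cell receptor, had 479, 429, 1597 and 1849, and the complement receptor gene CR2 had 18402 and 20604 in the Raji pair.

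Of genes repressed by PAX5, 0 of 13 passed 2-fold in Jeko-1/R (median -0.05), and in Raji/R 0 of 14 were lower and 1 was higher (median -0.13). This was GATA3, a T-cell regulator, with 87.2 in Raji and 238 in Raji/R (1.45). Dim signals were often higher in Raji/R. Among probe sets with a mean log2 signal between 6.75 and 7.92 in the Raji pair, 1702 of 6718 were at least 2-fold higher there and 548 lower. Among dimmer ones, from 6.28 to 6.75, 0 of 6719 were, since with values raised to the floor 2-fold cannot be reached there. The ranges use the mean of both arrays, so they give no rate for probe sets that were dim in Raji. FLT3, CD28 and BCL11B, also in this list, stayed below the floor on all 4 arrays. All other genes of the list on the array reached the floor on at least 1 array, and some were bright. CD47 had 10277, 11049, 12201 and 10487, and XBP1 had 2729, 3426, 6710 and 5746. Of genes activated by EBF1, 1 of 16 was lower in Jeko-1/R (median 0.02) and 0 of 17 passed 2-fold in Raji/R (median 0.05). The gene was OSBPL10, an oxysterol-binding protein gene, from 265 to 129 in the Jeko-1 pair (-1.04, and -0.26 from another probe set). CD79B, the partner chain of CD79A, had 4650.4, 4182, 12260.5 and 16888, and BLK, a kinase of the receptor, had 1131, 1314, 1679 and 917, a log2 ratio of -0.87 in Raji/R where its other probe set gave 0.48.

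Of OCT2 and OBF1 targets, 0 of 9 passed 2-fold in Jeko-1/R (median -0.10) and 0 of 10 in Raji/R (median 0.03). BTK, a kinase below the B-cell receptor, had 2859, 3486, 3183 and 3272, and the chemokine receptor gene CXCR5 had 340.03, 298, 1776 and 2889.99. Of the subunits of NuRD, the complex recruited by ZNF521, 0 of 14 passed 2-fold in Jeko-1/R (median -0.07). In Raji/R 1 of 15 was higher (median -0.21), namely the remodeller gene CHD5, from 67.3, below the floor, to 269, at least 3.47-fold. Like GATA3, CHD5 was dim in Raji. The brightest subunits were within 2-fold, with the histone deacetylase gene HDAC1 at 4463, 4424, 19763 and 16345.

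Among the other B-lineage transcription factors, 1 of 34 was lower and 0 were higher in Jeko-1/R (median 0.05), and 0 were lower and 1 of 34 higher in Raji/R (median -0.10). ID2, an inhibitor of E proteins, went from 7056 to 3152 in the Jeko-1 pair (-1.16, and -1.25 from its other probe set) and from 2429 to 2806 in the Raji pair. NFATC1, a calcium-regulated factor, went from 906 to 1832 in the Raji pair (1.02), while its other probe sets gave between -0.35 and 1.37. The E protein gene TCF3, whose product works with EBF1, had 9553, 7801, 16486 and 15003.5. Among family relatives of the 10 factors, 0 of 16 passed 2-fold in Jeko-1/R (median 0.02). In Raji/R 5 of 24 were higher and 0 lower (median 0.42): PAX8, from 440.02 to 913 (1.05), EBF4, from 98.6 to 203 (1.05), and IRF5, PAX2 and PAX7, at least 2.87-fold, 3.26-fold and 2.57-fold from below the floor. Other probe sets gave log2 ratios of -0.42, 1.06, 0.18 and 0.63 for PAX8, 0.51 for IRF5, 0.93 for PAX2 and -0.00 for PAX7. The 4 genes other than PAX8 were dim in Raji, with 98.6 or less. At a mean log2 signal between 6.75 and 7.92 in the Raji pair 1702 of 6718 probe sets were at least 2-fold higher in Raji/R. Among dimmer ones 0 of 6719 were, as given above. ZNF423, the relative of ZNF521, was below the floor in the Jeko-1 pair and had 143 in Raji and 98.2 in Raji/R (-0.54).

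Markers checked the label of the cells and what else they may hold. All 13 B-cell markers on the array were above the floor on every array, with summed signals of 58812 on the Jeko-1 array, 57458 on Jeko-1/R, 69467 on Raji and 80215 on Raji/R. None passed 2-fold in either line (medians -0.10 and 0.23). Of the plasma-cell markers, PRDM1, XBP1, JCHAIN and SDC1 are also in the list of genes repressed by PAX5, and IRF4 in that of genes it activates. The plasma-cell markers had 0 of 9 past 2-fold in both lines (medians 0.21 and -0.16) and summed signals of 23261, 28048, 21093 and 20776. Their regulator PRDM1, the gene of BLIMP-1, had 285, 209.7, 84.1 and 134, a log2 ratio of 0.67 in Raji/R, where its other probe sets gave 1.25 and -0.18.

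Of T-cell markers, 5, 4, 6 and 9 of 17 reached the floor on the arrays in the same order, with 0 of 6 past 2-fold in Jeko-1/R (median -0.04) and 2 of 9 higher in Raji/R (median 0.54). These were GATA3, also in the list of genes repressed by PAX5, and CD3D, at least 2.33-fold. Of NK-cell markers, 1, 1, 4 and 5 of 10 reached the floor and none passed 2-fold, with 1 and 5 measured (medians 0.67 and 0.30). Of myeloid markers, 1, 3, 4 and 8 of 14 reached it, with 0 of 3 past 2-fold in Jeko-1/R (median 0.44) and 1 of 8 higher in Raji/R (median 0.64), S100A8 at least 2.93-fold. Erythroid and megakaryocyte markers had 0 of 2 past 2-fold in Jeko-1/R (median 0.13) and 2 of 5 higher in Raji/R (median 0.86), ITGA2B by 2.36-fold and GP9 by at least 2.03-fold. Epithelial and stromal markers had 0 of 5 in Jeko-1/R (median -0.21) and 3 of 9 higher in Raji/R (median 0.23), KRT18 by at least 4.92-fold, COL1A2 by 3.05-fold and PECAM1 by 2.22-fold. Other probe sets gave log2 ratios in Raji/R of 0.38 for S100A8, 0.86 for COL1A2, and 1.33 and -0.18 for PECAM1. Apart from PECAM1, the markers past 2-fold in Raji/R were dim in Raji, with 117 or less. At a mean log2 signal between 6.75 and 7.92, 1702 of 6718 probe sets were 2-fold higher in Raji/R, and 0 of 6719 dimmer ones, as given above. Summed signals of T-cell markers were 3110.2, 3273, 1302 and 1792, those of NK-cell markers 404, 391, 1741 and 2649, and those of myeloid markers 477, 642, 999 and 1771. Some markers were bright: CD247, a signalling chain of T and NK cells, had 2185, 2212, 218 and 147, and NKG7, a gene of cytotoxic granules, had 59.2 and 28.1 in the Jeko-1 pair and 883 and 1749 in the Raji pair (0.99). The T-cell receptor gene CD3E (33.0, 47.0, 73.9 and 31.5), the monocyte gene CD14 (38.5, 4.64, 47.3 and 51.8) and the NK-cell gene GNLY (6.93, 8.21, 15.9 and 62.4) were below the floor on all 4 arrays. The part of the other markers in the ratios of the 10 factors was not tested.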

How the data were processed

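RNA of the 4 cultures was labelled from 6 µg and hybridised to Affymetrix arrays, per the labels' protocols. MAS5 made the signals, per the submitters' processing notes, in a version not given in the sources used here. Deposited were log2 values of 54613 probe sets. That the base is 2 follows from the trimmed mean signal, which was then 497, 497, 494 and 493 on the 4 arrays, near a common target. Since MAS5 applies 1 factor to a whole array, differences that depend on brightness remain.

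The platform annotation named a single gene for 41091 probe sets, more than 1 for 1801, and left 11721 unnamed. Gene IDs of 41037 matched the RefSeq table of GRCh38.p14, and 0 symbols changed. The promoter table held 7 of the 10 genes; SPI1, POU2AF1 and ZNF521 were not matched. Values under the pooled median (log2 6.28, signal 77.5) were raised to it before ratios, and a ratio with 1 side below it is written "at least". Within a line there was 1 array per state and no test. Between lines limma 3.58.1 (R 4.3.3), tested on simulated data, was fitted to all 4 arrays with line and resistance as terms, two-sided, with Benjamini-Hochberg adjustment over 29669 probe sets. An exact permutation test over 2 against 2 arrays cannot reach 0.05.

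The members and the 14 gene lists (190 of 209 genes on the array) were chosen with earlier results of these data known. By rule, all member probe sets, 3 nearest profiles for each of PAX5, EBF1 and ZNF521, and up to 4 changed genes and 3 bright unchanged genes of each list could be named; CD79A, CD79B, BLK, BTK, CXCR5, TCF3, PRDM1, ZNF423, CD247, NKG7 and the genes named as below the floor were named outside it, after their values were seen. Alternatives were a floor at the 75th percentile, no floor, a pseudocount of 64, quantile normalization, median centring, lowess (fraction 0.3), 1 value per gene, no x_at or s_at probe sets, an intensity trend and 1 term left out of the fit. For limma, the pseudocount and the restriction to probe sets above the floor on all 4 arrays were chosen after seeing the data. Python 3.11.15, numpy 2.4.6, pandas 2.3.3, statsmodels 0.14.6 and matplotlib 3.10.9 were used.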

Additional observations from a re-analysis of the deposited data

How the results depend on the processing

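The 1 member probe set 2-fold lower in Jeko-1/R became 0 with a floor at the 75th percentile, with quantile normalization and with the pseudocount, and the 0 higher became 1 with no floor. The 3 lower in Raji/R became 1 with the higher floor and 5 with median centring. The 1 higher in Raji/R became 0 with the higher floor, quantile normalization, median centring, the pseudocount, lowess, the brightest probe set per gene and the mean per gene, and 2 with no floor. The 14 calls between lines became 0 with no filter and 5 of 9 with 1 probe set per gene, where fewer were tested. Apart from the smaller number tested, the cause was not tested. No ratio of a member was reversed in these alternatives beyond the sign changes of small ratios given above. The resistance calls stayed at 0. The labels give no shared replicate numbers; the pairing comes from the cell lines. With no replicate block, 0 probe sets were called for resistance and 11 of 29 between lines. No replicate could be left out, since each group has 1 array and dropping a pair leaves no residual degree of freedom. Signal over background limits ZNF521, the dim probe sets of IKZF1 and both readings of BACH2 in Raji, and it leaves SPI1 unmeasured.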
